A study of Drosophila melanogaster with 3 samples.

Results

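Binding of eGFP-tagged CG16863 was examined at Hr4 and 8 other genes of the ecdysone response in Drosophila melanogaster, namely EcR, usp, Hr3, ftz-f1, Eip75B, Eip74EF, Eip78C and br. ChIP-seq with an anti-GFP antibody had been run on whole embryos collected at 0 to 16 h, males and females pooled, of a transgenic line that stably carries CG16863 with GFP at its C terminus. The 3 biological replicates form a single group, and no untagged or control library was analysed here. The whole-embryo material mixes every cell type and all stages of the collection, so the cells in which a site was bound, and the share of cells, cannot be told apart.

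The 9 genes, of 18164 annotated on the 6 chromosome arms, were chosen by name. The choice was made with earlier peak counts of these data known, Hr4 being among the genes with the most peaks, so counts and heights of peaks in these genes are given as a description, without tests. A summit, the position of highest signal in a peak, was assigned to a gene when it lay between 2 kb upstream of the gene and its end. The authors' set of peaks that passed irreproducible discovery rate (IDR) analysis held 3953 summits, and 30 of these fell in the 9 genes; they are called reproducible summits below. The authors' relaxed list of the pooled replicates held 23571 summits, with 179 in the 9 genes. The relaxed lists of the single replicates placed 167 summits of 24378 (replicate 1), 213 of 30000 (replicate 2) and 190 of 29769 (replicate 3) in them. Signal values are the authors', with no read depth given in the sources used here, and are printed as relative signal: the height of a replicate's peak within 100 bp of the reproducible summit, divided by that replicate's median over all reproducible peaks. A relative signal of 1 is thus the median reproducible peak of the series, and errors are SD over the 3 replicates.

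Ecdysone, the steroid hormone of insects, acts through a heterodimer of 2 nuclear receptors, the ecdysone receptor EcR and its partner Ultraspiracle (usp). The bound receptor induces early genes, which include the transcription factor genes br, Eip74EF and Eip75B, and these in turn act on later genes. Hr3, Hr4, Eip78C and ftz-f1 encode further nuclear receptors of this cascade; Hr3 acts on ftz-f1, and the protein of Eip75B can counteract that of Hr3. In embryos the hormone is required for morphogenetic movements. Hr4 is also known for control of the ecdysone pulses in the larval gland that makes the hormone.

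The sequences under the summits that the results turn on are shown first, as the summit with 50 bp on either side, on the forward strand of dm6 (RefSeq Release 6 genome). They comprise the 3 highest Hr4 summits, the Hr4 and Eip75B summits that hold a shared 9-letter string, the ftz-f1 summits nearest to a start site and with a listed 8-mer, and the br summit. Capitals mark the string GATGGCGCC, its reverse complement, or the 8-mer CTATTTAA or its reverse complement TTAAATAG.
Hr4, chrX:1947694-1947794: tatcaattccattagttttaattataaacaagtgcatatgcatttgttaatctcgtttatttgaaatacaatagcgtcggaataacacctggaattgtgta
Hr4, chrX:1951853-1951953: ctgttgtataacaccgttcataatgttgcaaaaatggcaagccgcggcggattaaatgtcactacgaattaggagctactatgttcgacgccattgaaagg
Hr4, chrX:1953028-1953128: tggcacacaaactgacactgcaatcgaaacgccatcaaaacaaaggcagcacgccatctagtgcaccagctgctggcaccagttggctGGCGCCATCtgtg
Hr4, chrX:1963904-1964004: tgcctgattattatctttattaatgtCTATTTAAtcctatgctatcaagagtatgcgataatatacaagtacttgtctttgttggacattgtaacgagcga
Eip75B, chr3L:18019770-18019870: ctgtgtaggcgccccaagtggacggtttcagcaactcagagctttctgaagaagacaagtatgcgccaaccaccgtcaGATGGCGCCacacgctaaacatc
Eip75B, chr3L:17988287-17988387: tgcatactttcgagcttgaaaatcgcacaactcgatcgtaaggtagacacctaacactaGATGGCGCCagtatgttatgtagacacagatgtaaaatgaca
ftz-f1, chr3L:18782107-18782207: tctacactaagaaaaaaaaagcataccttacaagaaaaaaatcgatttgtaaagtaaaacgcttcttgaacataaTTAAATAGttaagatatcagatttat
ftz-f1, chr3L:18765762-18765862: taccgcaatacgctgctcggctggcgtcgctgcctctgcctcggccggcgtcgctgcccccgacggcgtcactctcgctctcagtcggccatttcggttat
br, chrX:1618857-1618957: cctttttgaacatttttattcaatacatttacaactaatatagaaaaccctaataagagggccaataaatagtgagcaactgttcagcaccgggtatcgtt

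Hr4 (FBgn0264562, X 1941940 to 2007956, forward strand) held 9 reproducible summits, more than any other of the 9 genes. Of all annotated genes, 8 had more. The gene has 9 annotated transcripts and 2 start sites, and 8 of its 9 summits lay in introns between these start sites, each spanned by 7 of the 9 transcripts. The remaining summit lay 1763 bp upstream of Hr4, and 130 bp upstream of the start site of CG3587, a separate gene on the same strand, so it may belong to either. No reproducible summit lay in the last 23602 bp of Hr4. The highest relaxed summit of Hr4 that did not pass IDR was there, in the 3′ UTR at X 2005995, with no peak in replicate 1 and relative signals of 0.566 and 0.739 in replicates 2 and 3.

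The highest Hr4 summit lay 5804 bp into the gene (chrX:1947623-1947870) and had relative signals of 3.12, 4.00 and 3.63 in replicates 1 to 3, a mean of 3.59 ± 0.445 (SD, n = 3). It ranked 163 of the 3953 reproducible peaks by pooled signal. The summit 9963 bp into the gene (chrX:1951785-1952055) followed, with 3.06, 3.27 and 3.55 in the 3 replicates and a mean of 3.29 ± 0.247. These summits overlapped in their replicate ranges, but that at 5804 bp was the higher in each replicate. The gap was small in replicate 1 (3.12 against 3.06) and replicate 3 (3.63 against 3.55). The summit 22014 bp into the gene (chrX:1963817-1964029) had 2.95, 2.76 and 2.68, a mean of 2.80 ± 0.135. All its replicate values were below those of the 2 higher summits.

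A second tier of Hr4 summits stood at about the same height. The summit 42414 bp into the gene, which lies 7946 bp upstream of the downstream start site, reached 1.69 ± 0.162, that at 1866 bp reached 1.62 ± 0.149, and the upstream one near CG3587 reached 1.57 ± 0.217 (SD, n = 3 each). Every replicate value of these 3 summits was above 1. The other Hr4 summits were near or below the median of the series. The summit at 11138 bp had 0.984 ± 0.228, that at 27162 bp had 0.975 ± 0.406, and that at 6762 bp, only 958 bp from the highest summit, had 0.633 ± 0.246. In the last of these, replicate 2 was the low one, with 0.349 against 0.770 in replicate 1 and 0.780 in replicate 3. Summed over its 9 summits, Hr4 had a relative signal of 17.2 ± 1.35 (SD, n = 3).

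**Figure D1:**
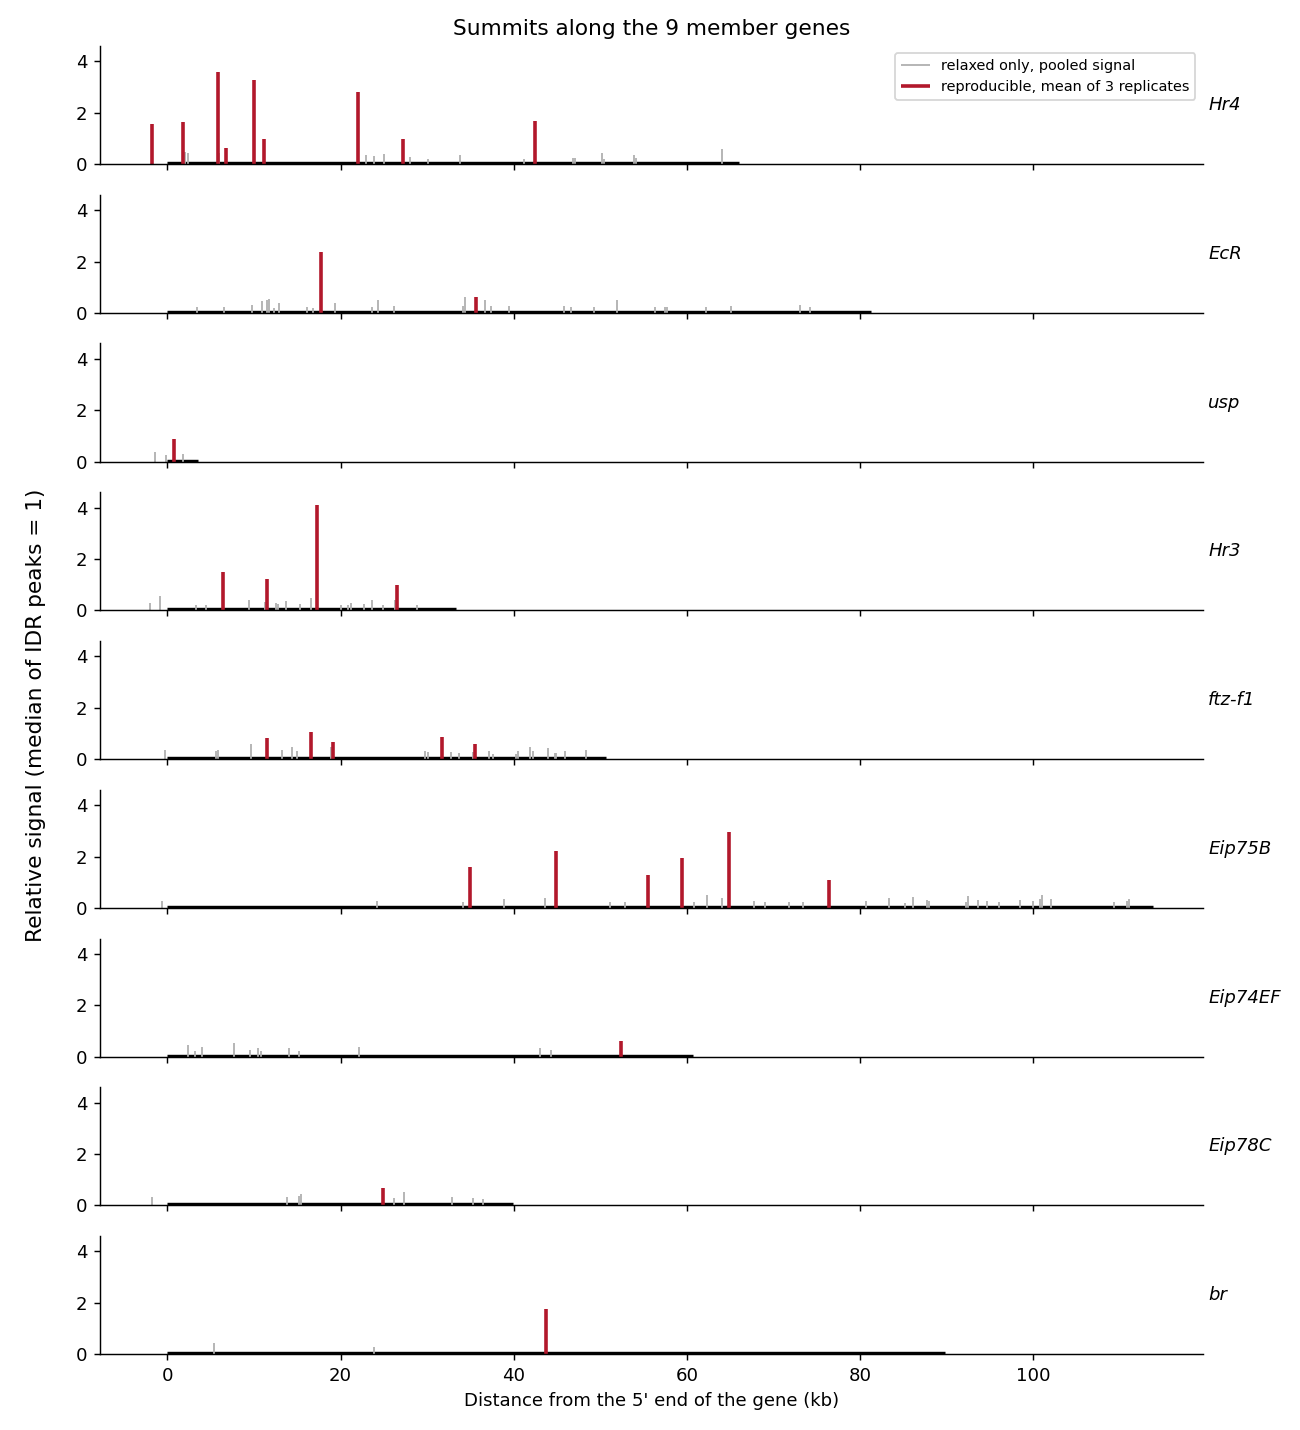
Summits along the 9 genes, with distance from the 5′ end of the gene in kb on the x axis and relative signal on the y axis (median reproducible peak = 1); the black bar is the gene. Red lines are reproducible summits at their mean over the replicates that had a peak there (3, or 2 for a pair of ftz-f1 summits). Grey lines are pooled relaxed summits that did not pass IDR, at their pooled signal. Hr4 carries 9 red lines, with none in its last 23602 bp, whereas br carries a single one.

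The receptor genes of the hormone itself carried fewer summits than Hr4. Per length this did not hold for usp, a short gene, where a single summit made 1.81 per 10 kb against 1.32 in Hr4. EcR (FBgn0000546, 2R 6087873 to 6169087, reverse strand) had 2 reproducible summits among 32 relaxed ones. The higher, chr2R:6151076-6151505, lay in an intron 17796 bp from the 5′ end of EcR, with relative signals of 2.63, 1.55 and 2.87 in the 3 replicates and a mean of 2.35 ± 0.704 (SD, n = 3). Replicate 2 was well below the others at this site, although it was above 1 in each. A tRNA gene, tRNA:Asn-GTT-1-1, starts 1385 bp away. The lower EcR summit, 1523 bp upstream of the start site of transcript EcR-RC, had 0.751, 0.831 and 0.309, a mean of 0.630 ± 0.281, with replicate 3 lowest.

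The partner gene usp (FBgn0003964, X 2038798 to 2042311, reverse strand) is the shortest member, at 3514 bp, and had 1 reproducible summit. It lay 227 bp upstream of the start site of usp-RA, inside an exon of the longer usp transcript, and within the overlapping gene Actn, which encodes alpha-actinin and runs on the same strand. The relative signal was 0.918, 0.806 and 0.955, a mean of 0.893 ± 0.0774 (SD, n = 3). All 3 values were below the median of the series. The mean became 1.09 when a replicate peak up to 200 bp away was accepted.

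Among the later receptor genes, Hr3 and ftz-f1 differed in height. Hr3 (FBgn0000448, 2R 10203995 to 10237348, reverse strand) held the highest summit of all 9 genes, chr2R:10219923-10220240, which lay in an intron 17288 bp from its 5′ end. Its relative signals were 4.13, 4.33 and 3.80, a mean of 4.09 ± 0.266 (SD, n = 3), and it ranked 128 of 3953. Its replicate range overlapped that of the highest Hr4 summit, which was the lower in each replicate (3.12, 4.00 and 3.63). The other Hr3 summits reached 1.48 ± 0.254, 1.20 ± 0.208 and 0.990 ± 0.175 at 6489, 11505 and 26521 bp from the 5′ end. All 4 lie within introns of Hr3 and also inside CG12912, an overlapping gene on the same strand. Those at 11505, 17288 and 26521 bp also lie inside CG46321. The summit at 26521 bp lies inside lncRNA:CR46322 as well, 520 bp from the start site of that gene. Position therefore does not assign any of the 4 to a single gene.

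ftz-f1 (FBgn0001078, 3L 18750607 to 18801309, reverse strand), which encodes a receptor needed both for embryonic segmentation and for later competence to ecdysone, held 5 reproducible summits, all of modest height. The highest, 16551 bp from the 5′ end, had 0.635, 1.26 and 1.30, a mean of 1.06 ± 0.373 (SD, n = 3), with replicate 1 below the others. The remaining 4 were below 1 in every replicate that had a peak there. The summits at 11538, 16551 and 19152 bp from the 5′ end also lie inside the gene lncRNA:CR45939. A summit 68 bp upstream of the start site of ftz-f1-RD had 0.559, 0.749 and 0.489, a mean of 0.599 ± 0.135. Its window, printed above, was the richest in G and C of the 30 (67.3%). Of the ftz-f1 summits, 1 had no peak within 100 bp in replicate 1 and 1 had none in replicate 3; the other 28 summits of the 9 genes were matched in every replicate.

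Eip78C (FBgn0004865, 3L 21226609 to 21266503, forward strand), a receptor gene named for its polytene puff, had 1 reproducible summit, in an intron 24930 bp from the 5′ end. Its relative signals were 0.628, 0.516 and 0.863, a mean of 0.669 ± 0.177 (SD, n = 3). All 3 were below the median of the series.

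Among the early genes, the highest summit ran from 0.619 in Eip74EF to 2.95 in Eip75B. Eip75B (FBgn0000568, 3L 17950953 to 18064696, reverse strand) is the longest member, at 113744 bp, with 7 transcripts from 7 start sites. Its 6 reproducible summits all lay between 34909 and 76359 bp from the 5′ end, and none of the 6 was below 1 in all replicates. The highest, chr3L:17999580-18000009, was 26 bp downstream of the start site of Eip75B-RC, in its first exon. It had relative signals of 2.62, 3.07 and 3.16, a mean of 2.95 ± 0.287 (SD, n = 3). This was the strongest summit within 500 bp of a member's own start site. Immediately upstream of that start site lies a match to CTATTTAA, at positions -16 to -9, shown here in capitals on the reverse strand in the 30 bp of chr3L:17999817-17999846.
Eip75B-RC start site: aaccacactCTATTTAAaatctctcactta

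The other Eip75B summits were in introns. The summit 44876 bp from the 5′ end had 1.89, 2.32 and 2.39, a mean of 2.20 ± 0.270, and that at 59426 bp had 2.06, 2.21 and 1.53, a mean of 1.93 ± 0.355. Both were above 1 in each replicate, as was that at 34909 bp, with 1.61 ± 0.168. The summits at 55488 bp (1.29 ± 0.299) and 76359 bp (1.08 ± 0.204) each fell below 1 in replicate 1, where they had 0.944 and 0.905. Summed over its 6 summits, Eip75B had a relative signal of 11.1 ± 0.979, and Hr3 had 7.76 ± 0.875 over 4 (SD, n = 3).

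Eip74EF (FBgn0000567, 3L 17558672 to 17619325, reverse strand) encodes an ETS-domain factor. It had 1 reproducible summit, 52338 bp from its 5′ end, with relative signals of 0.689, 0.686 and 0.481 and a mean of 0.619 ± 0.119 (SD, n = 3). br (FBgn0283451, X 1575132 to 1664869, forward strand) encodes zinc finger proteins with a BTB domain, in several isoforms. Although br spans 89738 bp, only 3 pooled relaxed summits fell in it or its upstream 2 kb. The 1 reproducible summit, chrX:1618692-1619121, had 1.93, 1.52 and 1.83, a mean of 1.76 ± 0.217 (SD, n = 3). All 3 values were above the median of the series. It lay in an intron of br, 43775 bp from the 5′ end, and also within Mur2B, a gene on the other strand whose nearest start site was 752 bp away.

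**Figure D2:**
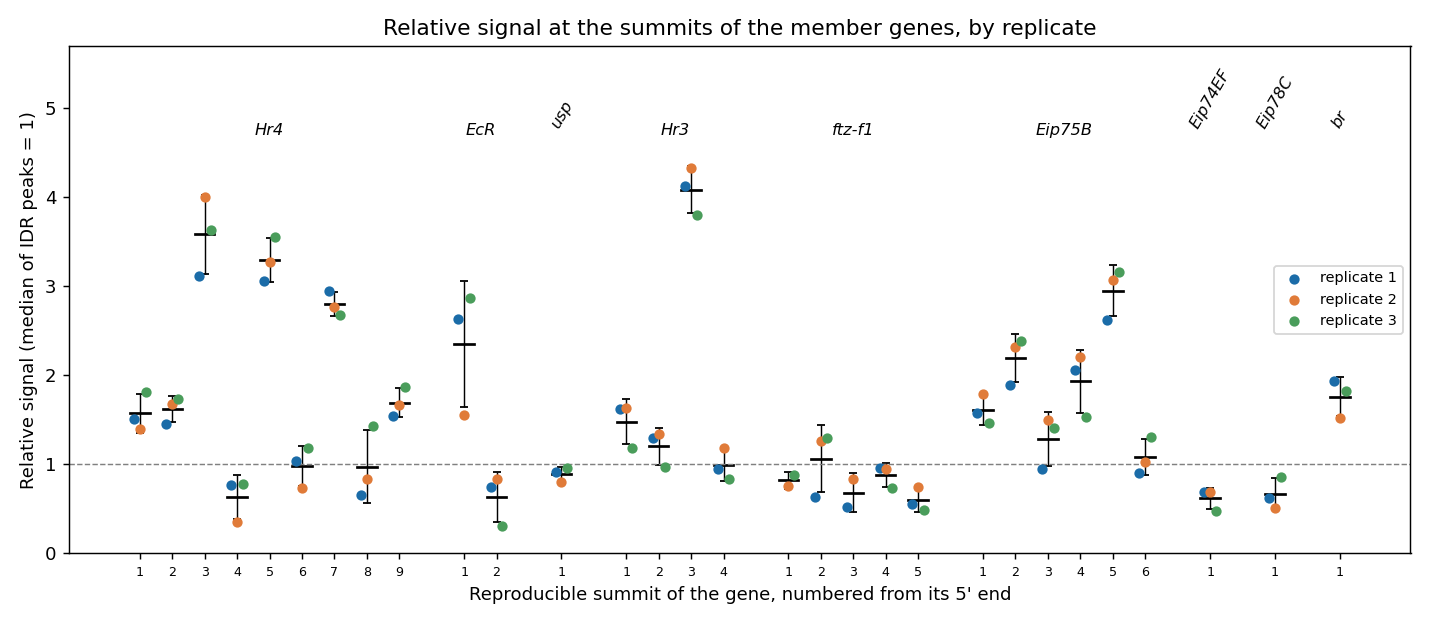
Relative signal (y axis, median reproducible peak = 1, dashed line) at each of the 30 reproducible summits, numbered along the x axis from the 5′ end of each gene; points are the replicates, black bars and whiskers the mean and SD. The highest summits of Hr3, Hr4 and Eip75B reached means of 4.09, 3.59 and 2.95, and all 3 of their replicate points are above 2.5.

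Ordered by their highest summit, the genes ran Hr3 (4.09), Hr4 (3.59), Eip75B (2.95), EcR (2.35), br (1.76), ftz-f1 (1.06), usp (0.893), Eip78C (0.669) and Eip74EF (0.619). Of the neighbours in this order, br and ftz-f1 alone did not overlap in their replicate values, the lowest of br being 1.52 and the highest of ftz-f1 1.30. Every other neighbouring pair overlapped in range. Compared within each replicate, Hr3 was always above Hr4, Hr4 above Eip75B, EcR above br, and usp above Eip78C. The order of Eip75B and EcR, of ftz-f1 and usp, and of Eip78C and Eip74EF changed between replicates. These orders were not tested.

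Each of the 9 genes had at least 1 reproducible summit, against 22.2% of all annotated genes. Length bears on this, since 8 of the 9 are 30 kb or longer and 53.8% of the 682 genes of that length had a reproducible summit. The 8 long members had a median of 3 reproducible summits, against 1 for all genes of 30 kb or more. Per length, their median was 0.379 summits per 10 kb, against 0.114. Hr4 had 1.32 per 10 kb and ranked 15 of 682, Hr3 had 1.13 and ranked 25, ftz-f1 had 0.949 and ranked 40, and br, with 0.109, ranked 345. The members therefore ran from among the densest long genes to about the median.

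**Figure D3:**
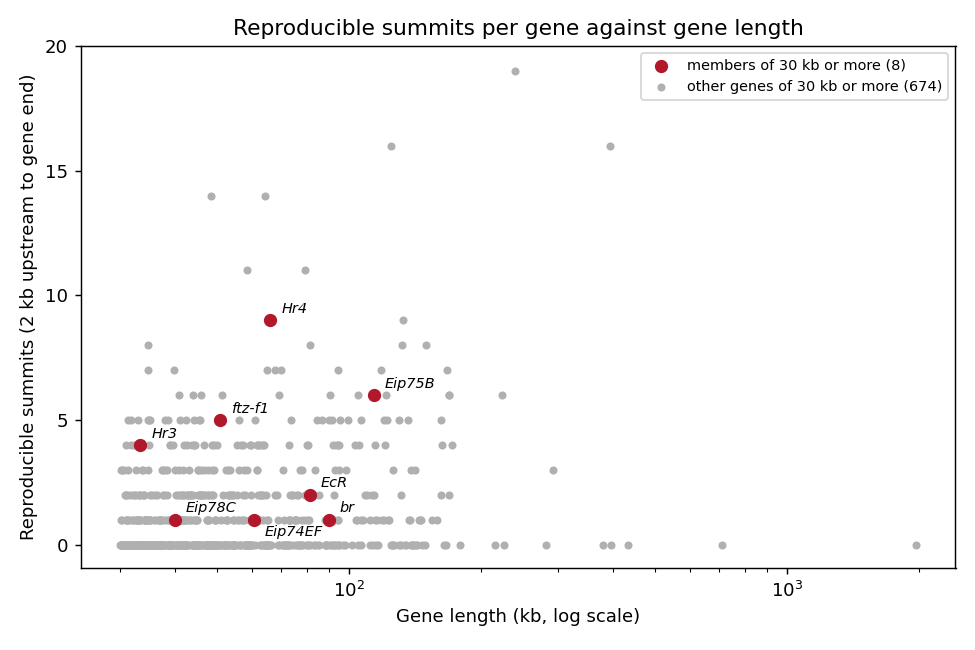
Number of reproducible summits from 2 kb upstream to the gene end (y axis) against gene length in kb (x axis, log scale), for the 8 members of 30 kb or more (red) and the other 674 such genes (grey). Hr4, with 9, is near the top, while Eip74EF, Eip78C and br have 1 each.

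Of the pooled relaxed summits in the 9 genes, 30 of 179 (16.8%) were reproducible, and of all pooled relaxed summits the share was 16.8% too. The share varied between the genes, from 34.6% of 26 in Hr4 to 6.25% of 32 in EcR. Reproducible summits were separated from the others by pooled signal, the lowest in the series being 108.6. In the 9 genes the lowest value inside was 109.6, at a ftz-f1 summit, and the highest outside was 107.1, at an EcR intron summit. That EcR summit lay at position 6134717 on 2R, 1272 bp from the lower reproducible summit of the gene, and had a peak in replicates 1 and 2 only.

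Most of the 30 summits were high in each replicate list. Of them, 23 (76.7%) were among the 3953 highest peaks of all 3 replicate lists, compared with 62.0% of all reproducible summits. In Hr4 this held for 8 of 9, in Eip75B for 6 of 6 and in Hr3 for 4 of 4, but for none of those in Eip74EF and Eip78C. Across the summits, Spearman correlations between replicates were 0.843 to 0.877 (n = 28 or 29 summits with a peak in both replicates), against 0.744 to 0.771 over all reproducible summits, as a description only, since these summits share libraries and pooled signal chose them. Values above 1 in every replicate were found at 14 of the 30 summits, against 35.5% of all 3953 reproducible summits. Another 9 of the 30 were below 1 in every replicate that had a peak. No share over all reproducible summits is at hand for that count, so it is not read as a trait of these genes.

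The median relative signal of the 30 summits was 1.36 ± 0.0575 (SD, n = 3), against 0.970 ± 0.0106 for the 938 reproducible summits in other genes of 30 kb or more. The groups of replicate medians did not overlap, but the genes were chosen with their peaks known, so nothing further is read from this.

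Most of the 30 summits were far from start sites. Within 500 bp of any annotated start site lay 4 of the 30 (13.3%), while 50.2% of all reproducible summits did. The other 26 (86.7%) were in introns of the member genes, and none lay in a coding exon or UTR away from a start site. In the other genes of 30 kb or more, 27.8% of reproducible summits were at promoters and 67.4% in introns. The rule takes summits from genes and a 2 kb stretch before them, which leaves little room for intergenic summits. Of the 4 promoter summits, 3 were at a start site of the member itself, in usp, ftz-f1 and Eip75B, and the last was that near CG3587. By this measure 3 of the 9 genes were bound at a promoter of their own, against 14.3% of all genes. That share is not matched for length or for the number of start sites, which ran from 2 (Hr4 and usp) to 9 (br) in the 9 genes. The relaxed summits of the 9 genes that did not pass IDR differed in place, with 17.4% at promoters, 8.05% in coding exons and 67.8% in introns (n = 149).

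**Figure D4:**
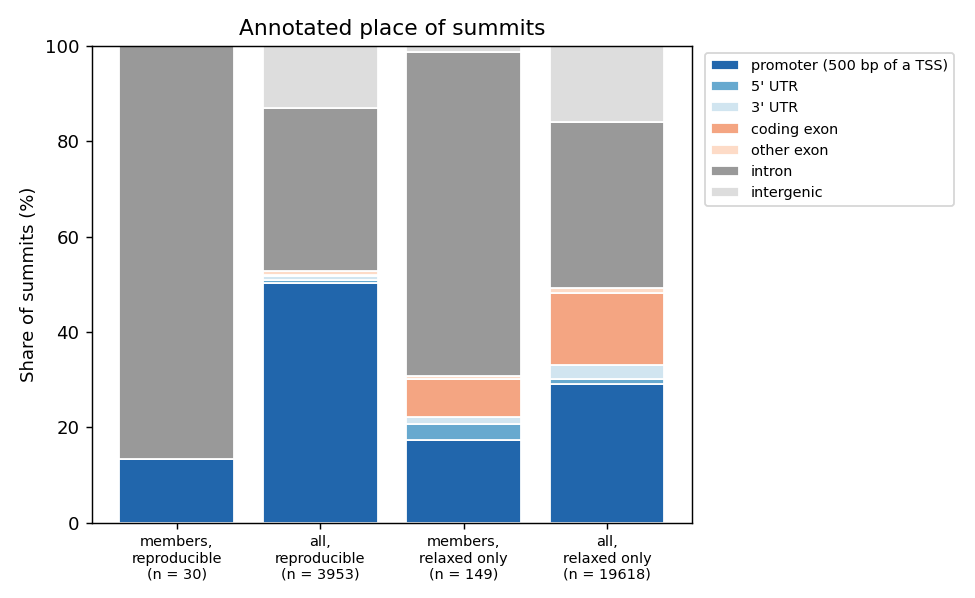
Share of summits (y axis, %) by annotated place for reproducible summits in the 9 genes, all reproducible summits, relaxed summits that did not pass IDR in the 9 genes, and all such relaxed summits. Introns take 86.7% of the reproducible summits in the 9 genes and 34.2% of all reproducible summits.

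The base composition of the 30 windows (50 bp on either side of the summit) was close to that of other reproducible windows, with a median GC content of 35.6%, against 34.7% in the 3923 outside the 9 genes and 44.6% in the 19469 relaxed windows that did not pass IDR. The range was wide, and the 4 Hr3 windows were all at 28.7% or lower. Strings known from ecdysone and other regulatory sites were then searched on both strands. AGGTCA, the core hexamer that many nuclear receptors recognise, was in 0 of 30 windows, and was in 1.78% of the other reproducible windows and 2.54% of the relaxed ones. Also at 0 of 30 were TCAAGGTCA, a longer site of the kind Ftz-F1 recognises, and AGGTCA followed after 1 base by TGACCT, the palindromic form of an ecdysone response element. Outside the 9 genes these were likewise at 0% in reproducible windows. TCAAGGTCA overlaps AGGTCA, which it contains, as does the palindrome. These counts say only that the letters are not in these windows.

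TATCGATA, the DNA replication-related element of fly promoters, was in 0 of 30 windows, against 2.27% of the other reproducible windows and 0.878% of the relaxed ones. GGTCACACT, CAGGTAG and CACGTG were each in 0 of 30 as well, with shares of 0.688%, 0.510% and 1.05% in the other reproducible windows. GAGAG, contained in sites of GAGA factor, was in 4 of 30 (13.3%), at Hr4, EcR, ftz-f1 and Eip75B, against 11.1% of the other reproducible windows and 13.4% of the relaxed ones. The 10 8-mers that were most over-represented in reproducible windows outside the 9 genes, by the ratio of their shares, were in 3 of 30 windows, against 11.9% of the reproducible windows they were ranked on and 4.19% of the relaxed ones. All 3 held the same 8-mer, CTATTTAA, in Hr4, ftz-f1 and Eip75B, as marked in the sequences above. It was in 1.48% of the other reproducible windows and 0.509% of the relaxed ones.

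Reading the printed windows showed a further shared string, GATGGCGCC, which was searched after it had been seen and so has no test. It was in 3 of 30 windows, in the Hr4 summit 11138 bp into the gene and in the Eip75B summits 44876 and 76359 bp from the 5′ end, against 0.484% of the other reproducible windows and 0.170% of the relaxed ones. These letters belong to the core of the sequence that the insulator protein CTCF recognises in Drosophila. Relative signals at these 3 sites were 0.984 ± 0.228, 2.20 ± 0.270 and 1.08 ± 0.204 (SD, n = 3); at the first and the last, the replicates lay on both sides of 1.

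Other genes of the pathway were taken from 3 lists set by role and are mostly shorter than the 9. Of 15 genes for synthesis, import and breakdown of ecdysone and its control (median length 4002 bp), 2 had a reproducible summit, compared with 22.2% of all genes. They were Oatp74D, which encodes the ecdysone importer (1.06 ± 0.309), and mld, a zinc finger gene required for ecdysone synthesis (0.723 ± 0.0859; SD, n = 3). The Oatp74D summit lay 1492 bp upstream of that gene, in an intron of its neighbour CG6333. None of the listed enzyme genes that make or break down the hormone (nvd, spo, spok, sro, phtm, dib, sad, shd and Cyp18a1) had one.

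Of 14 other nuclear receptor genes (median length 8479 bp), 3 had a reproducible summit (21.4%, against 22.2% of all genes), each at a promoter. They were Hr96, a receptor of lipid homeostasis (2.25 ± 0.239), ERR, the oestrogen-related receptor that drives carbohydrate metabolism (1.13 ± 0.207), and Hnf4, a receptor of lipid and mitochondrial metabolism (1.00 ± 0.0540; SD, n = 3). The Hr96 summit was nearest to the start site of EMC6, 142 bp upstream of Hr96. The other 11, which include svp, tll, Hr38, Hr39, Hr51 and Hr78, had none.

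Of 31 cofactors and other ecdysone response genes (median length 12142 bp), 12 had a reproducible summit (38.7%, against 22.2% of all genes, which include many shorter ones). The highest was in an intron of ImpL2, which encodes a secreted binder of insulin-like peptides, with 4.34, 4.07 and 4.35 in the 3 replicates and a mean of 4.25 ± 0.155. Next were E23, an ABC transporter gene, at its promoter (2.91 ± 0.448), and Eip63E, a cyclin-dependent kinase gene, in an intron (2.56 ± 0.148; SD, n = 3). The replicate range of the ImpL2 summit overlapped that of the highest Hr3 summit, so the highest summit of the 9 genes did not stand apart from that of ImpL2.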

How the data were processed

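The authors deposited peak lists on dm6, with a signal value and a −log10 q value per peak, per the labels and the deposited read-me text; for the aligner, peak caller, IDR settings and depth, nothing was given in the sources used here. Lists on dm3 were not used. Summits were placed with Ensembl release 115 (BDGP6.54, dm6 coordinates; transposable elements left out), and sequences were read from the RefSeq Release 6 genome, in which 99.8% of annotated start codons read ATG. Coordinates are 1-based. A summit within 500 bp of a start site was called promoter. The members, lists, motifs and alternatives were chosen with earlier results of these data known. Named are all members with each reproducible summit, and the 3 genes of each other list with the highest mean relative signal. Of 60 list genes, 8 were matched by synonym. The 8-mers were ranked among those in at least 1% of reproducible windows outside the 9 genes. The ranking was tried on simulated windows with equal shares of each base. It made no correction for base composition, and reproducible windows had less GC than relaxed ones (medians 34.7% and 44.6%). The simulation therefore cannot tell whether base composition shaped the list of 8-mers. The alternatives covered the region, peak set, match distance, scaling, start site window and sequence window, and each replicate was left out in turn. No test between groups was possible with 1 group; Python 3.11.15, numpy 2.4.6, pandas 2.3.3 and scipy 1.17.1 were used.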

Additional observations from a re-analysis of the deposited data

How the results depend on the processing

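The number of reproducible summits in the 9 genes (30) ran from 22, with reproducible peaks of at least median signal, to 36, with pooled peaks of a q value of at most 0.01, and was 29 and 31 with the gene body alone and with 5 kb upstream. Among the peaks that the strongest lists of the other replicates shared when 1 was left out, it was 24 to 25, in 7 to 8 of the 9 genes. In the whole series these shared peaks numbered 2805, 2766 and 2854 without replicates 1, 2 and 3, beside 3953 reproducible peaks. Eip78C had none without any of the replicates, and Eip74EF had none without replicate 1 or replicate 2. Both also dropped out with peaks of at least median signal, which left 7 genes. In the other pathway lists the number of genes with a reproducible summit was 17, and ran from 9, with peaks of at least median signal, to 24, with the q value limit, with 13 in the gene body alone and 23 with 5 kb upstream. The median relative signal of the 30 summits was 1.34 to 1.39 with a replicate left out. Scaling by the whole relaxed list gave 4.42, since relaxed peaks have a lower median. Of the 30 windows, those with any of the 10 8-mers numbered 6 with 100 bp and 1 with 30 bp on either side of the summit. With 50 bp there were 3, as longer windows hold more letters. Of the other reproducible windows, 18.6% held any of the 10 with 100 bp and 7.21% with 30 bp. GATGGCGCC, searched at these lengths after the data had been seen, was in 3 of the 30 windows with 100 bp and 1 with 30 bp. It was in 0.637% and 0.255% of the other reproducible windows. Scaling by the strongest peaks of each replicate, or matching within 50 bp, kept all 30 mean signals within 1 SD. No paired analysis between groups was possible because there is 1 group. Summits were compared within replicates by their order only, without a test.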
